A study of Mus musculus with 8 samples.

Results

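The genes described here are the subunits and assembly factors of mitochondrial complex I, in ventricles that lacked NAE1 in cardiomyocytes and in littermate control ventricles. They were every protein-coding gene of the count table whose symbol begins with Nduf, each Ensembl gene taken once, which gave 46 of 40690 genes. Symbols beginning with Ndufaf were taken as 8 assembly factors and the others as 38 subunits. Polyadenylated RNA was sequenced from whole ventricles of 4 NAE1CKO mice and 4 littermates (CTL), which the labels call wild type, at postnatal day 1. In NAE1CKO mice a floxed *Nae1* was recombined by Cre under the αMHC promoter, which is active in cardiomyocytes, so that the other cells of the ventricle keep the gene. Whether CTL mice carried a floxed allele or Cre is not given in the sources used here. NAE1 is the regulatory subunit of the enzyme that activates NEDD8, a small protein that is joined to cullins and other targets. Libraries are named by their titles, and values are given throughout in the order KO-443-3, then KO-443-5, then KO-453-6, then KO-453-7 for NAE1CKO, and WT-443-7, then WT-443-8, then WT-453-3, then WT-453-5 for CTL. What the first number of a title stands for is not given.

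Complex I (NADH:ubiquinone oxidoreductase) is the entry point for electrons from NADH into the respiratory chain. Its matrix arm holds an N module, where flavin takes the electrons from NADH, and a Q module, where iron-sulfur clusters hand them to ubiquinone, while its membrane arm, with a proximal and a distal part, pumps protons. A conserved core of nuclear and mitochondrially encoded subunits does this chemistry, accessory subunits surround it, and assembly factors help to build it without staying in the enzyme. Heart muscle turns to oxidative metabolism around birth and is rich in this complex.

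The libraries held from 16304420 to 18593509 counts in NAE1CKO and from 13932821 to 18056322 in CTL. *Nae1* had from 177 to 245 counts in NAE1CKO and from 295 to 426 in CTL, a log2 fold change of −0.96 by edgeR (adjusted p = 7.18e-06). One noncoding gene, *Gm42418*, took 12.8% of the counts of WT-453-5 and from 3.09% to 4.62% of the other libraries. Levels are CPM, counts scaled by TMM to a common library size. A gene was called lower or higher at a Benjamini-Hochberg adjusted p under 0.05 in edgeR's quasi-likelihood test over 13622 genes, among which all 46 complex I genes were.

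Complex I transcripts were lower in NAE1CKO ventricles, broadly and by a modest amount. Of the 46 genes, 35 were lower, 0 were higher and 11 did not pass. Over all tested genes, 17.6% were lower and 18.6% higher. At an unadjusted p under 0.05 in edgeR, 40 of the 46 were lower, where 22.4% of all genes were, and 0 higher, where 23.1% were. At the adjusted threshold limma-voom and DESeq2 also called 0 higher. The fitted log2 fold change was negative in 45 of 46, with a median of −0.36 and a range from −0.67 to 0.13, against a median of 0.00 over all genes tested. One gene, *Ndufb10*, was lower by more than 1.5-fold, where 5.56% of all genes were, and 0 were higher by that much, where 7.31% of all genes were. The log2 fold change of *Ndufb10* was −0.56 without WT-453-3 and −0.58 under scaling by library size, both short of that fold, so that 0 genes then passed it. Without WT-443-8 and without KO-453-6 the number was 2, as *Ndufs7* passed too (log2 −0.59 and −0.60). Without WT-453-5, 33 of the 46 were lower. In CPM, all NAE1CKO libraries lay below all CTL libraries for 34 of the 46 genes, which was so for 17.9% of all genes, and above them for 1, *Ndufaf5*, which was so for 18.6% of all genes.

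Summed over the 46 genes, complex I transcripts came to 8163, 8828, 8960 and 7811 CPM in NAE1CKO ventricles, against 10207, 10839, 12017 and 11163 CPM in CTL ventricles. The groups did not overlap, and KO-453-7 was the lowest library and WT-453-3 the highest. In bulk tissue, fewer cardiomyocytes and less complex I RNA per cardiomyocyte cannot be told apart. The 12 cardiomyocyte markers summed to between 53923 and 57815 CPM in NAE1CKO and to between 68148 and 82064 CPM in CTL, with 7 of the 12 lower, 1 higher (*Csrp3*) and none at 0. Relative to that sum, complex I was at 0.148, 0.154, 0.155 and 0.145 in NAE1CKO and at 0.150, 0.157, 0.146 and 0.143 in CTL, so that the groups overlapped. *Myh6*, the gene of αMHC, made up 33.3% of the marker sum and was itself lower. Relative to the other 11 markers, complex I was at 0.217, 0.222, 0.224 and 0.201 in NAE1CKO. In CTL it was at 0.229, 0.241, 0.236 and 0.219. The groups again overlapped, but only through WT-453-5, and the other CTL libraries lay above all NAE1CKO libraries. Both sums hold markers that themselves fell, among the other 11 *Ryr2* (log2 −1.01), *Pln* (−0.80) and *Myl2* (−0.44). Complex I was not set against only the markers that did not pass. The markers did not move together, since *Actn2*, of the Z-disc, had a log2 fold change of 0.09 (adjusted p = 0.341 by edgeR) and *Tnnt2*, cardiac troponin T, one of −0.11 (adjusted p = 0.240). The 10 macrophage markers were all higher and summed to between 159.0 and 213 CPM in NAE1CKO, against 105 to 116 CPM in CTL. Of 8 fibroblast markers 4 were lower (3620 to 4195 CPM summed in NAE1CKO, 3939 to 4796 CPM in CTL), and of 8 endothelial markers 5 were higher and 1 lower (1457 to 1504 CPM in NAE1CKO, 1276 to 1360 CPM in CTL). Without any 1 library other than KO-453-6 and WT-443-7, 3 of the 8 endothelial markers were higher. Of 6 smooth muscle and pericyte markers 3 were lower and 1 higher (812 to 898 CPM in NAE1CKO, 918 to 998 CPM in CTL). Of 6 erythroid markers 0 passed (380.2 to 753 CPM in NAE1CKO, 412 to 610.0 CPM in CTL), and the 4 lymphocyte markers were too low to test, with *Cd3e* at 0 in every library. The part of these cell types in the complex I result was not tested.

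**Figure D1:**
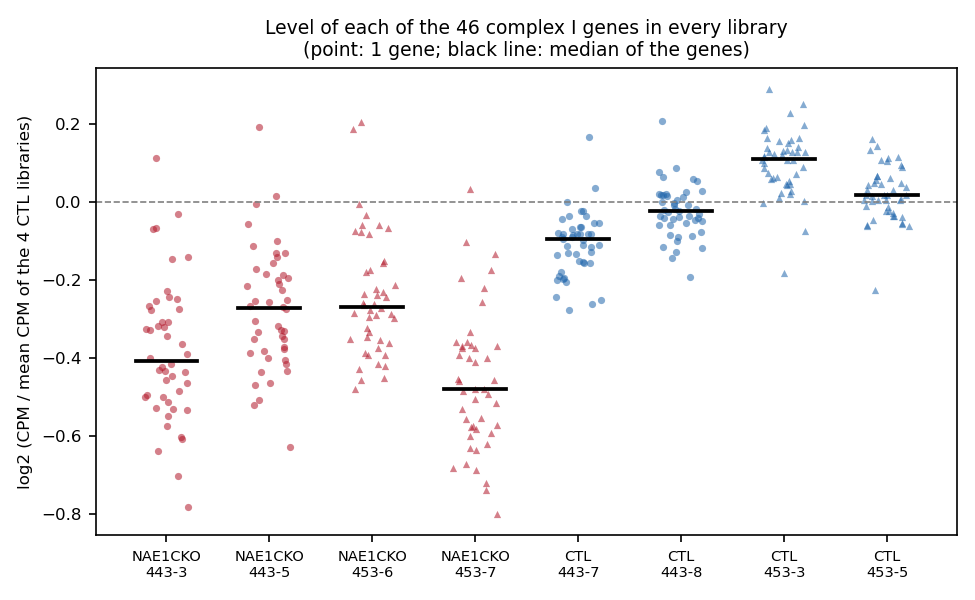
Level of each of the 46 complex I genes in every library, as log2 of its CPM over the mean CPM of the 4 CTL libraries (vertical axis), with 1 point per gene, NAE1CKO libraries in red, CTL libraries in blue, circles for KO-443 and WT-443 and triangles for KO-453 and WT-453. The black lines are the medians over the genes, which lie at −0.41, −0.27, −0.27 and −0.48 in the 4 NAE1CKO libraries and at −0.10, −0.02, 0.11 and 0.02 in the 4 CTL libraries.

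By position in the enzyme, calls were most frequent in the matrix arm, where 16 of 16 subunits were lower with a median log2 fold change of −0.44. In the membrane arm 15 of 20 were lower, with a median of −0.34. The N module had 10 of 10 lower (median −0.43), the Q module 6 of 6 (−0.46), the proximal membrane arm 7 of 9 (−0.36) and the distal membrane arm 8 of 11 (−0.25). Of the assembly factors 3 of 8 were lower, with a median of −0.20. Without WT-453-5 the proximal arm had 6 of 9 lower and the assembly factors 2 of 8, and the other modules kept their counts. No test of the difference between these groups of genes was made. The assembly factors were also less abundant, at a median of 17.6 CPM in NAE1CKO and 22.1 CPM in CTL, against 190.3 CPM in NAE1CKO and 265 CPM in CTL for the subunits, and their median standard error of a log2 fold change was 0.099, against 0.073 for the subunits. Among the 46 genes the fold changes had an SD of 0.15 on the log2 scale, and the median standard error of one gene was 0.077.

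**Figure D2:**
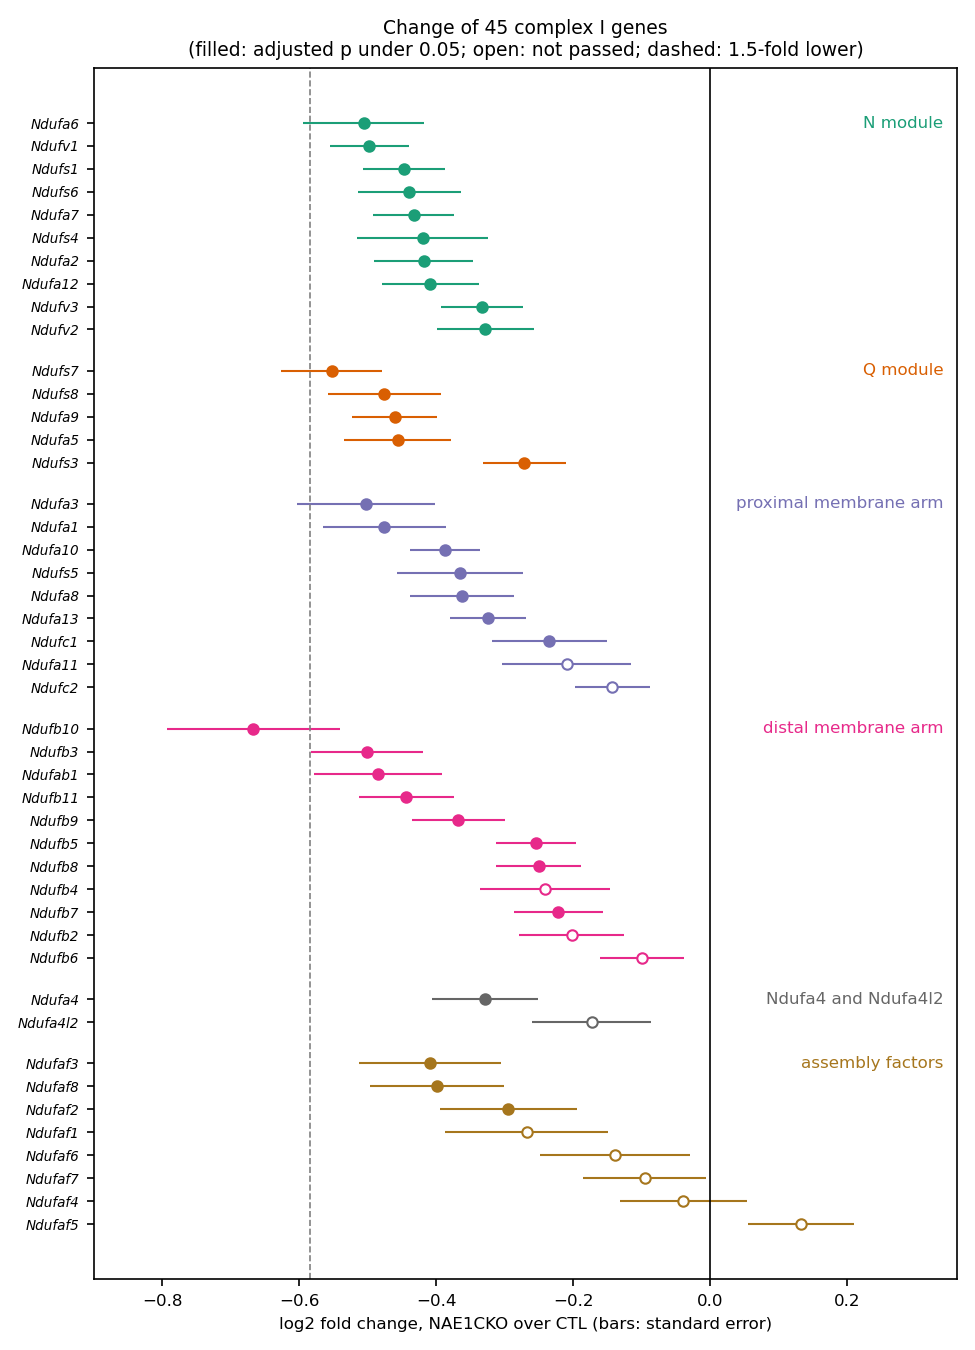
Fitted log2 fold change of NAE1CKO over CTL (horizontal axis) with its standard error for 45 of the 46 complex I genes, grouped by place in the enzyme, from 4 libraries each. Filled points passed an adjusted p under 0.05 and open points did not; all N and Q module genes shown are filled, only *Ndufb10* lies left of the dashed line for 1.5-fold lower, and only *Ndufaf5* lies right of 0.

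All 7 nuclear-encoded core subunits fell, by 0.27 to 0.55 on the log2 scale. *Ndufv1* (ENSMUSG00000037916), which binds NADH and the flavin, had 553, 589.8, 583 and 536 CPM in NAE1CKO ventricles, against 775, 776, 865 and 778 CPM in CTL ventricles. The groups did not overlap and WT-453-3 stood above the other CTL libraries. Its log2 fold change was −0.50 ± 0.057 (SE, adjusted p = 4.31e-05 by edgeR). *Ndufs1*, the largest subunit of the matrix arm and a carrier of several iron-sulfur clusters, had 349, 374, 350.3 and 311 CPM in NAE1CKO, against 464, 478, 486 and 459.7 CPM in CTL. These groups were also apart, with a log2 fold change of −0.45 ± 0.060 (SE, adjusted p = 0.000134 by edgeR). *Ndufv2*, another core subunit of the N module, was at 335, 375, 365 and 298 CPM in NAE1CKO and at 408, 432, 449 and 436 CPM in CTL. No library crossed over, KO-453-7 was the lowest, and the fold change was the smallest of the N module (log2 −0.33, adjusted p = 0.00339 by edgeR).

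In the Q module the largest fall was that of *Ndufs7* (ENSMUSG00000020153), which carries the last iron-sulfur cluster before ubiquinone. It was at 313, 333, 357 and 299 CPM in NAE1CKO and at 450.4, 437, 529 and 493 CPM in CTL. Every NAE1CKO library was below every CTL library, and the log2 fold change was −0.55 ± 0.074 (SE, adjusted p = 0.000131 by edgeR). *Ndufs8*, a ferredoxin-like subunit that feeds electrons towards that cluster, had 203, 208, 206 and 162 CPM in NAE1CKO, against 247, 269, 293 and 274 CPM in CTL. Here KO-453-7 stood well below the other NAE1CKO libraries, which were themselves below CTL. Its log2 fold change was −0.48 ± 0.082 (SE, adjusted p = 0.000791 by edgeR). *Ndufs3*, another core subunit of the module, had 112, 122, 117 and 107 CPM in NAE1CKO and 128, 141, 144 and 139.6 CPM in CTL. It fell without overlap and by less than any other gene of the module, with a log2 fold change of −0.27 (adjusted p = 0.00391 by edgeR). Of the 50-base stretches of *Ndufs3*, 39.7% also occur in other annotated genes, so its level is uncertain. Such shares are throughout those of the longest annotated transcript of a gene, which need not be the main one in the heart.

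Among the accessory subunits, *Ndufb10* (ENSMUSG00000040048) of the distal membrane arm had the lowest fold change of the 46 genes. Its levels were 362, 403, 446 and 358 CPM in NAE1CKO, against 514, 544, 760.1 and 672 CPM in CTL. The groups were apart, but CTL itself was spread, with both WT-453 libraries well above both WT-443 libraries. The log2 fold change was −0.67 ± 0.13 (SE, adjusted p = 0.00254 by edgeR), with the largest standard error of the 46 genes. *Ndufb3*, also of the distal arm, was at 71.7, 77.6, 82.04 and 65.05 CPM in NAE1CKO and at 91.9, 106, 113 and 108 CPM in CTL (log2 −0.50, adjusted p = 0.000519 by edgeR). *Ndufa6*, a small LYR-motif protein that docks an acyl carrier protein on the matrix arm, had 162, 199, 206 and 176 CPM in NAE1CKO and 229.8, 256, 288 and 282 CPM in CTL (log2 −0.51, adjusted p = 0.000943 by edgeR). *Ndufa3* of the proximal membrane arm had 195, 213, 236 and 190.3 CPM in NAE1CKO and 246, 288, 346 and 302 CPM in CTL (log2 −0.50, adjusted p = 0.00244 by edgeR). In all of these, no NAE1CKO library reached the lowest CTL library, and WT-453-3 was the highest CTL library. *Ndufa12*, an accessory subunit added to the N module late in assembly, was at 84.4, 89.7, 94.97 and 82.03 CPM in NAE1CKO and at 116, 107, 131 and 112 CPM in CTL, again without overlap (log2 −0.41, adjusted p = 0.000788 by edgeR).

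A further 19 accessory subunits of the 4 parts of the enzyme are given by range. All of them were called lower because those that did not pass were set apart and are described below. They were *Ndufab1*, the acyl carrier protein itself, *Ndufa1*, *Ndufa2*, *Ndufa5*, *Ndufa7*, *Ndufa8*, *Ndufa9*, *Ndufa10*, *Ndufa13*, *Ndufb5*, *Ndufb7*, *Ndufb8*, *Ndufb9*, *Ndufb11*, *Ndufc1*, *Ndufs4*, *Ndufs5*, *Ndufs6* and *Ndufv3*. Their group means ran from 16.8 to 449 CPM in NAE1CKO and from 21.6 to 579 CPM in CTL, with log2 fold changes from −0.48 to −0.22. NAE1CKO lay below CTL without overlap in 18 of them, the exception being *Ndufc1*. The call of *Ndufc1* was the closest to the limit (log2 −0.24, adjusted p = 0.0461 by edgeR, from 0.00986 to 0.197 over the alternative fits) and was lost in 11 of 22 of them. *Ndufs4*, whose loss in mice causes a fatal encephalopathy, had a log2 fold change of −0.42 (adjusted p = 0.0050 by edgeR).

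Transcript levels were far from equal between subunits that the enzyme holds in broadly like amounts. Per kilobase of merged exon, the subunits ranged from 3.44 to 435 CPM in NAE1CKO and from 3.96 to 562 CPM in CTL, with medians of 137 CPM in NAE1CKO and 165 CPM in CTL. *Ndufb9*, *Ndufa1* and *Ndufb10* were the highest in CTL, at 562, 516 and 512 CPM per kilobase, and *Ndufb2* was the lowest. Merged exon length includes every annotated exon, also those of rare isoforms, which lowers the value of genes such as *Ndufb2* (5628 bases) and *Ndufab1* (6883 bases). Sequence shared with other genes is a second limit. Of the 50-base stretches of *Ndufb9* 23.4%, of *Ndufab1* 12.3% and of *Ndufb2* 5.39% lie in other genes.

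Of the membrane arm, 5 subunits did not pass. *Ndufb6* of the distal arm was at 78.2, 82.9, 82.2 and 78.6 CPM in NAE1CKO and at 81.4, 80.4, 94.6 and 88.5 CPM in CTL. Both WT-443 libraries lay within the NAE1CKO range and only the WT-453 libraries were above it (log2 −0.10, adjusted p = 0.229 by edgeR), and 34.1% of its 50-base stretches lie in other genes. *Ndufc2*, a subunit of the proximal arm, had 124, 128, 131 and 115 CPM in NAE1CKO and 134, 136, 138 and 142 CPM in CTL. Its groups did not overlap but the difference was small (log2 −0.14, standard error 0.054, adjusted p = 0.0576 by edgeR, from 0.0354 to 0.504 over the alternative fits, of which 5 passed). *Ndufa11*, a multispanning subunit of the proximal arm, had 242, 281, 292 and 237 CPM in NAE1CKO and 255, 299, 335 and 327 CPM in CTL. WT-443-7 was within the NAE1CKO range (log2 −0.21, adjusted p = 0.104 by edgeR). *Ndufb4* had 15.3, 16.1, 16.2 and 14.2 CPM in NAE1CKO and 17.6, 21.1, 16.1 and 18.3 CPM in CTL (log2 −0.24, adjusted p = 0.0639 by edgeR). *Ndufb2* had 18.7, 18.6, 21.1 and 19.1 CPM in NAE1CKO and 20.6, 23.7, 22.99 and 21.9 CPM in CTL (log2 −0.20, adjusted p = 0.0568 by edgeR). In both of these distal arm subunits, which were scarce, the highest NAE1CKO library crossed the lowest CTL library, and 37.0% of the 50-base stretches of *Ndufb4* lie in other genes, among them its copy *Ndufb4c*.

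*Ndufa4*, long listed with complex I and since placed in cytochrome c oxidase, and its paralog *Ndufa4l2*, a target of hypoxia-inducible factor that lowers complex I activity, were compared as a pair. *Ndufa4* had 348, 409, 396 and 331 CPM in NAE1CKO and 418, 483, 484 and 479.7 CPM in CTL, without overlap although WT-443-7 was well below the other CTL libraries (log2 −0.33, standard error 0.077, adjusted p = 0.00531 by edgeR). *Ndufa4l2* had 15.3, 14.6, 17.4 and 16.9 CPM in NAE1CKO and 17.3, 17.1, 18.1 and 19.99 CPM in CTL, and overlapped (log2 −0.17, adjusted p = 0.14 by edgeR). The ratio of *Ndufa4l2* to *Ndufa4* counts was 0.0437 ± 0.00619 in NAE1CKO and 0.0390 ± 0.00302 in CTL (SD, n = 4 each, two-sided exact permutation test, p = 0.171, where 0.0286 is the smallest that 70 arrangements allow). Without KO-443-5 the log2 difference of the ratio was 0.25, against 0.16 with all libraries. The exact permutation test then gave p = 0.0286, from fewer than 70 arrangements, so its smallest possible p was set anew. *Ndufaf2*, the assembly factor that holds the place of its paralog *Ndufa12* until the N module is complete, stood to *Ndufa12* as 0.168 ± 0.0109 in NAE1CKO and as 0.155 ± 0.00612 in CTL (SD, n = 4 each, two-sided exact permutation test, p = 0.0857). Its log2 difference was 0.11 with all libraries and 0.067 without KO-443-5. These are the 2 ratios tested, and neither passed.

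**Figure D3:**
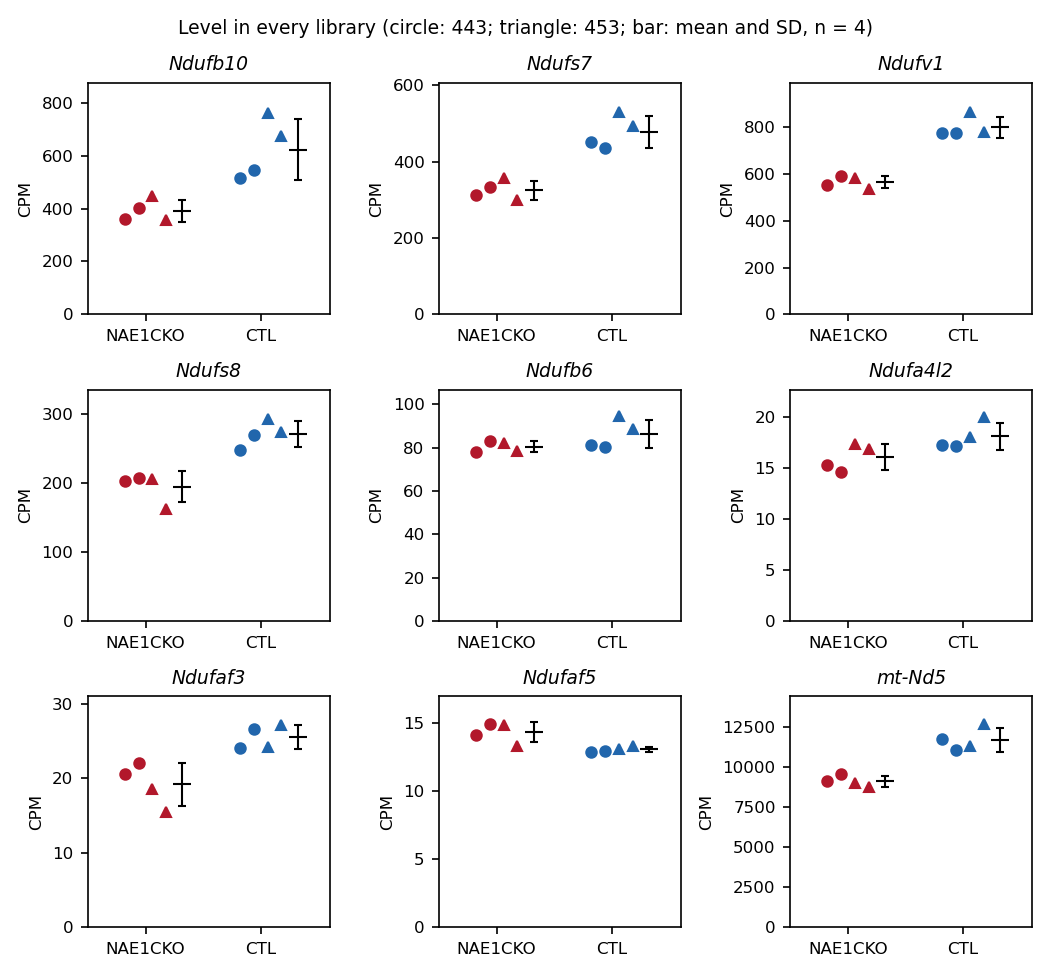
CPM of 9 genes in each NAE1CKO library (red, left) and each CTL library (blue, right), with circles for KO-443 and WT-443, triangles for KO-453 and WT-453 and the mean and SD (n = 4) as a black bar beside each group, on axes that start at 0. *Ndufb10*, *Ndufs7*, *Ndufv1*, *Ndufs8*, *Ndufaf3* and *mt-Nd5* separate the groups, *Ndufb6* and *Ndufa4l2* overlap, and *Ndufaf5* has its NAE1CKO libraries above its CTL libraries.

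Of the 8 assembly factors, 3 passed as lower and 5 did not pass, with known partners on either side of the threshold. Between KO-443 and WT-443 alone 0 of 8 were lower, and between KO-453 and WT-453 alone 3 of 8. *Ndufaf3* and *Ndufaf4* encode proteins that bind each other and build the Q module. *Ndufaf3* was at 20.6, 22.05, 18.6 and 15.5 CPM in NAE1CKO and at 24.1, 26.7, 24.2 and 27.1 CPM in CTL, with both KO-453 libraries lowest and no overlap (log2 −0.41, standard error 0.10, adjusted p = 0.0086 by edgeR). *Ndufaf4* was at 37.3, 35.8, 45.1 and 34.2 CPM in NAE1CKO and at 36.1, 36.8, 39.9 and 43.8 CPM in CTL. Its groups overlapped in full (log2 −0.04, standard error 0.093, adjusted p = 0.77 by edgeR), with a fold change that turned above 0 in 4 alternatives, scaling by library size among them. *Ndufaf8* and *Ndufaf5* are likewise partners in human cells, where NDUFAF5 hydroxylates an arginine of NDUFS7 and NDUFAF8 stabilizes it. *Ndufaf8* had 15.3, 17.5, 17.4 and 13.6 CPM in NAE1CKO and 19.5, 19.8, 22.4 and 22.6 CPM in CTL, without overlap (log2 −0.40, standard error 0.098, adjusted p = 0.00699 by edgeR). *Ndufaf5* (ENSMUSG00000027384) had 14.1, 14.9, 14.9 and 13.3 CPM in NAE1CKO and 12.8, 12.97, 13.1 and 13.3 CPM in CTL. It was the only one of the 46 with a positive fold change, and KO-453-7 was nearly level with WT-453-5 (log2 0.13, standard error 0.077, adjusted p = 0.206 by edgeR). Whether partners changed by different amounts was not tested.

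*Ndufaf2* was at 13.7, 16.5, 15.6 and 13.2 CPM in NAE1CKO and at 17.3, 16.4, 20.5 and 18.1 CPM in CTL (log2 −0.30, adjusted p = 0.0366 by edgeR, from 0.0244 to 0.325 over the alternative fits). KO-443-5 was level with WT-443-8, the call was lost in 6 of 22 alternative fits, and 80.9% of the 50-base stretches of *Ndufaf2* lie in other genes, including the overlapping *B230220B15Rik*, so both its level and its ratio to *Ndufa12* are uncertain. *Ndufaf1*, of the complex that assembles the early membrane arm, had 19.2, 20.7, 23.9 and 15.9 CPM in NAE1CKO and 20.8, 23.1, 25.9 and 26.3 CPM in CTL, and KO-453-6 lay inside the CTL range (log2 −0.27, standard error 0.12, adjusted p = 0.10 by edgeR). *Ndufaf6* had 12.98, 13.2, 12.6 and 9.48 CPM in NAE1CKO and 13.6, 12.8, 13.9 and 12.8 CPM in CTL (log2 −0.14, adjusted p = 0.35 by edgeR). *Ndufaf7*, a mitochondrial methyltransferase, had 22.1, 23.4, 20.9 and 20.6 CPM in NAE1CKO and 26.01, 22.6, 24.3 and 19.8 CPM in CTL (log2 −0.10, adjusted p = 0.437 by edgeR). In *Ndufaf6* only KO-453-7 was far from the CTL libraries, and in *Ndufaf7* the lowest library of all was WT-453-5.

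Promoters were read for the genes at both ends of this range, since these 46 genes moved largely together. RefSeq windows of GRCm38.p6, from 250 bases before to 50 after a start, were matched for 40 of the 46 genes. The windows below are those of *Ndufb10* (chr17:24724374-24724673, minus strand), *Ndufs7* (chr10:80249199-80249498, plus strand) and *Ndufv1* (chr19:4012706-4013005, minus strand), 3 of the genes that fell most, and of *Ndufaf5* (chr2:140170396-140170695, plus strand), the one with a positive fold change. In GENCODE M21 on GRCm38 these genes span chr17:24722060-24724478, chr10:80249121-80256794, chr19:4007384-4012806 and chr2:140170649-140203689 in the same order. The windows run 5′ to 3′ on the strand of the gene. Capitals mark matches on either strand to the letters GCGCANGCG of NRF1, nuclear respiratory factor 1, ACGTG of hypoxia-inducible factor (HIF), AAGATGGCG of YY1 or TATAAA of the TATA box. *Ndufb10* holds 1 NRF1 and 1 HIF match, *Ndufs7* 1 TATA and 1 YY1 match, *Ndufv1* a HIF match on each strand and *Ndufaf5* an NRF1 match on each strand, where in both cases the 2 matches overlap.
Ndufb10: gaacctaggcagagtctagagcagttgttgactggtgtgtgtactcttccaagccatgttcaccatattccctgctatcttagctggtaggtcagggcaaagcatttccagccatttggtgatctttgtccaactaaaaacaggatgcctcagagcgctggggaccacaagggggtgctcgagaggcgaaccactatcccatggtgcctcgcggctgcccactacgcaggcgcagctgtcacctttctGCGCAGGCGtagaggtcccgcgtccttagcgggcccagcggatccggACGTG
Ndufs7: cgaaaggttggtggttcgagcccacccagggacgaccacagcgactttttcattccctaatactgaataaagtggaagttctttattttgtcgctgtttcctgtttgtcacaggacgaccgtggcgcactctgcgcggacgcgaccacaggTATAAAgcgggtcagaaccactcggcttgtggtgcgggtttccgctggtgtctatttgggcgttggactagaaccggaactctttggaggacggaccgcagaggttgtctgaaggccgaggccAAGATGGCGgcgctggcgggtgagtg
Ndufv1: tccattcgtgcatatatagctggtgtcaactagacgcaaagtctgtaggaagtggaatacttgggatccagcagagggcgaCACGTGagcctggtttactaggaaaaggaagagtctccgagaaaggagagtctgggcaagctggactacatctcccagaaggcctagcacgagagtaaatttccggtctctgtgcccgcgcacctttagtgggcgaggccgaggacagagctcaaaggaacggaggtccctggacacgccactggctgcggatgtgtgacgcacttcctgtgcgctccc
Ndufaf5: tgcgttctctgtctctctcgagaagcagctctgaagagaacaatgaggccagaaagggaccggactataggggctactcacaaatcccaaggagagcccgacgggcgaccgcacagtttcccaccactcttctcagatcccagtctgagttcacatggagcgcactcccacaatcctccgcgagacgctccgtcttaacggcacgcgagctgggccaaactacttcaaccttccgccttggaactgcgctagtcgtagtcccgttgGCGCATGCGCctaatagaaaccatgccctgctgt

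NRF1, a regulator of nuclear genes of the respiratory chain, had its letters in 10 of the 40 windows (25.0%), against 7.03% of 27025 genes with a RefSeq window. These 10 were *Ndufa5*, *Ndufa6*, *Ndufa8*, *Ndufa11*, *Ndufb4*, *Ndufb10*, *Ndufs5*, *Ndufs6*, *Ndufaf4* and *Ndufaf5*, so that they took in the lowest fold change, that of *Ndufb10*, and both of the highest, those of *Ndufaf5* and *Ndufaf4*. YY1 letters were in 6 windows (15.0%), against 1.64% of genes, those of *Ndufa9*, *Ndufc1*, *Ndufs4*, *Ndufs6*, *Ndufs7* and *Ndufaf8*. ETS letters (CCGGAAG) were in 6 (15.0%), against 9.93% of genes, HIF letters in 7 (17.5%), against 21.8%, and TATA letters in 4 (10.0%), against 15.7%. The letters TCAAGGTCA of estrogen-related receptors, known regulators of cardiac mitochondrial genes, were in 0 of 40 windows and in 0.466% of genes. The 27025 genes were all those with a RefSeq window and were not limited to genes counted or tested here. A match shows only that the letters are present, and no binding was measured.

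Of the 7 subunits that mitochondrial DNA encodes, 5 were tested, of which 3 were lower and 2 did not pass. *mt-Nd5*, a proton-pumping subunit at the tip of the membrane arm, had 9112, 9547, 8988 and 8733 CPM in NAE1CKO and 11717, 11013, 11262 and 12662 CPM in CTL, without overlap (log2 −0.36, standard error 0.060, adjusted p = 0.000641 by edgeR). *mt-Nd4*, next to it in the arm, had 7793, 8096, 7914 and 7693 CPM in NAE1CKO and 9955, 9359, 10289 and 10040 CPM in CTL, also without overlap (log2 −0.33, adjusted p = 0.000451 by edgeR). *mt-Nd6*, which lies on the other strand of the mitochondrial genome, had 1678, 1695, 1496 and 1594 CPM in NAE1CKO and 2099, 1922, 1794 and 2169 CPM in CTL (log2 −0.30, adjusted p = 0.00451 by edgeR). It was lower without overlap as well, but reads of either strand may be among its counts, since the strand setting is not given. *mt-Nd1*, where the arms join, had 21071, 22317, 21199 and 19140 CPM in NAE1CKO and 22998, 22758, 18781 and 19638 CPM in CTL (log2 −0.01, adjusted p = 0.951 by edgeR). *mt-Nd2* had 8045, 7955, 7291 and 6730 CPM in NAE1CKO and 7709, 7356, 5801 and 6532 CPM in CTL (log2 0.13, adjusted p = 0.283 by edgeR). Both overlapped, and both were lower in the WT-453 than in the WT-443 libraries. *mt-Nd3* had 0 counts in the KO-443 and WT-443 libraries and from 4 to 7 in the KO-453 and WT-453 libraries. *mt-Nd4l* had 0 counts in every library, and neither gene was tested. These RNAs come from a library of polyadenylated RNA, and the length of their tails was not measured.

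Of 12 further genes known to act in complex I assembly, 8 were lower and 4 did not pass, with a median log2 fold change of −0.32, and 7 were lower without WT-453-5. *Acad9* and *Ecsit*, which work with *Ndufaf1* in the early membrane arm, fell (log2 −0.28 and −0.26), as did their partner *Tmem126b* (−0.44). *Timmdc1* (−0.43), *Foxred1* (−0.45), *Tmem70* (−0.37) and *Nubpl*, which delivers iron-sulfur clusters to complex I (−0.48), fell as well. *Dmac2*, listed in the table as *Atp5sl*, fell furthest, at 33.3, 37.2, 31.5 and 28.7 CPM in NAE1CKO and 52.1, 49.4, 48.2 and 45.04 CPM in CTL (log2 −0.58, standard error 0.081, adjusted p = 0.000187 by edgeR), without overlap. *Tmem186* (log2 −0.10), *Dmac1*, listed as *Tmem261* (−0.17), *Aifm1* (−0.15, adjusted p = 0.0518 by edgeR) and *Lyrm2* (−0.16) did not pass.

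The other complexes of the respiratory chain and ATP synthase were lower as well. Of 46 nuclear genes of complexes II to V, 40 were lower, 1 was higher and 5 did not pass, with a median log2 fold change of −0.32, against 35, 0 and 11 with a median of −0.36 for the 46 complex I genes. The counts were 4 of 4 in complex II, 9 of 9 in complex III, 13 of 15 in complex IV and 14 of 18 in complex V. Without WT-453-5, 38 of these 46 were lower, with 12 of 18 in complex V. The gene that was higher, *Atpif1*, encodes the inhibitor of ATP synthase, at 243, 248, 268 and 254 CPM in NAE1CKO and at 202, 205, 187 and 201 CPM in CTL (log2 0.35, standard error 0.053, adjusted p = 0.000338 by edgeR). The summed CPM of complex I over that of complexes II to V was 0.315, 0.314, 0.323 and 0.314 in NAE1CKO and 0.318, 0.320, 0.338 and 0.339 in CTL. The groups overlapped, with both WT-453 libraries above all others.

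**Figure D4:**
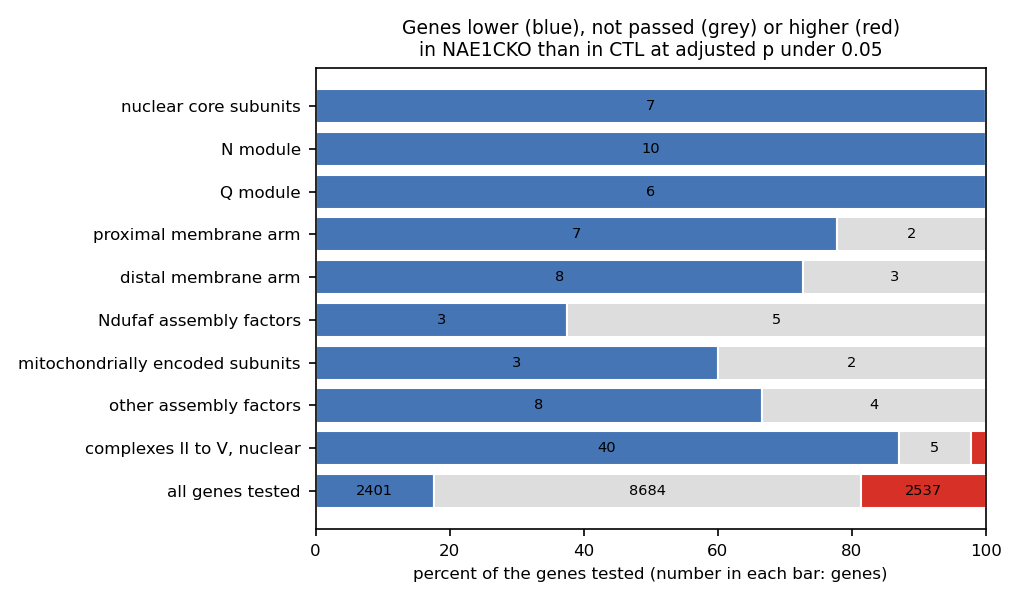
Share of the genes tested (horizontal axis, in percent) that were lower (blue), did not pass (grey) or were higher (red) in NAE1CKO than in CTL at an adjusted p under 0.05, with the number of genes in each bar. Blue fills the bars of the N and Q modules, reaches 8 of 11 in the distal membrane arm and 3 of 8 in the Ndufaf assembly factors, and covers 2401 of all 13622 genes.

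The fitted fall was deeper between KO-453 and WT-453 than between KO-443 and WT-443 libraries for 43 of the 46 genes, with 2 libraries of each genotype in each of these sets. The like count over all genes was not made. All 46 genes were read in the same libraries, so the 43 are not separate observations. Between KO-443 and WT-443 alone, 28 of the 46 were lower, where 15.5% of all genes were, and 0 higher, where 17.0% were, with a median log2 fold change of −0.26. Between KO-453 and WT-453 alone, 34 were lower, where 11.8% of all genes were, and 0 higher, where 12.6% were, with a median of −0.43. Both WT-453 libraries were above both WT-443 libraries for 29 of the 46 genes (27.2% of all genes) and below them for 0 (27.0%). Both KO-453 libraries were above both KO-443 libraries for 2 genes (20.4%) and below them for 3 (18.7%). In edgeR's test of the interaction of genotype and that number, 0 of the 46 and 0.0% of all genes passed, and DESeq2 passed 0 of the 46 and 41 of all genes. At an unadjusted p under 0.05 in edgeR, 1 of the 46, *Ndufb10*, passed, where 9.59% of all genes did, with a log2 fold change of −0.47 between KO-443 and WT-443 and of −0.84 between KO-453 and WT-453. A different response in the 2 sets of libraries was therefore not shown for any complex I gene.

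**Figure D5:**
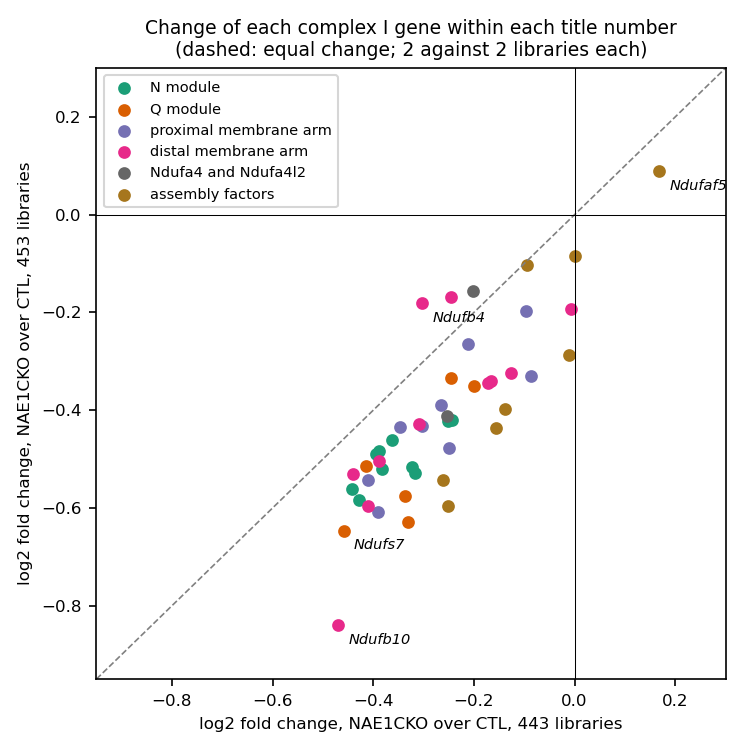
Log2 fold change of NAE1CKO over CTL for each complex I gene between KO-443 and WT-443 (horizontal axis) and between KO-453 and WT-453 (vertical axis), 2 against 2 libraries each. For 43 of the 46 genes the point lies below the dashed line of equal change, farthest for *Ndufb10*, and none of these differences passed the interaction test after adjustment.

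Genes with and without sequence shared with other genes were both among those that fell. Of 22 genes with no 50-base stretch in another annotated gene 16 were lower, and of the 24 with such a stretch 19 were. Of 19 genes whose exons overlap those of another gene 15 were lower, and of the 19 with neither feature 14 were, with a median log2 fold change of −0.39.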

How the data were processed

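RNA of ventricles from 4 NAE1CKO and 4 CTL mice, 1 library each, was analysed from raw counts per Ensembl gene that the authors deposited. Their processing notes list STAR 2.0.4b, bcl2fastq, Subread and featureCounts 1.4.5. Build, annotation and strand setting: not given in the sources used here. Reads of genes that overlap, on the same or the opposite strand, therefore cannot be told apart. Of 41264 lines 574 repeat a gene, and each of 40690 genes was used once. The labels give the tissue as ventricle but also carry a cell line tag, cardiomyocyte, and the samples were read as tissue. Nothing in the labels says how libraries map to litters. The p-values of edgeR set the difference between the groups against the spread of these 8 libraries within their groups.

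Under R 4.3.3, filtering by edgeR 4.0.16's filterByExpr kept 13622 genes, which were scaled by TMM and put through robust quasi-likelihood tests, with Benjamini-Hochberg adjustment over all genes tested. DESeq2 1.42.0 and limma 3.58.1 (voom) were alternatives. The paper gives no model for these data. Every pair of replicates differed by more than sampling noise in a chi-square comparison of counts. The closest pair of each group was that of title number 443, at 4.94 per gene in NAE1CKO and 4.28 in CTL. The farthest NAE1CKO pair was at 18.0. CTL pairs that include WT-453-5 were at 64.7 to 73.0, and the other CTL pairs reached at most 15.2. The scripts were tested on simulated data. GENCODE M21 (GRCm38) gave exon lengths, exon overlaps and 50-base stretches shared between genes, and RefSeq gave promoter windows for 40 of 46 genes. The stretches were taken from the longest transcript of each gene and matched on either strand. Modules, pathway lists, markers and motifs were taken from general knowledge.

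The members and lists were chosen with earlier results of these data known. Values in every library are given for the nuclear core subunits, the 5 lowest and 5 highest fold changes, the assembly factors, *Ndufa4*, *Ndufa4l2*, *Ndufa12* and every gene that did not pass. The values of 1 gene that this rule takes are not reported here. *Atpif1* and the markers named were chosen after their values were seen. *Coa1* was not matched in the table. Further alternatives were other scalings (RLE, upper quartile, library size), other filters (none, at least 1 CPM in 4 libraries, only protein-coding genes, mitochondrial and hemoglobin genes left out), non-robust estimation, stricter thresholds, the title number as a block, each title number alone and leaving out each library. One more, without *Gm42418*, was chosen after seeing the data.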

Additional observations from a re-analysis of the deposited data

Results flagged for a closer look

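With 4 libraries in each group, 96 groups of values were examined for a library far from the others of its group by Dixon's test, and chance alone flags about 1 in 20 such groups. *Ndufv1* in WT-453-3 was at 865 CPM, where the next CTL library was at 778 CPM. *Ndufa13* in WT-453-3 was at 482 CPM, where the next was at 432 CPM. *Ndufs8* in KO-453-7 was at 162 CPM, where the next NAE1CKO library was at 203 CPM. *Ndufa4* in WT-443-7 was at 418 CPM, where the next CTL library was at 479.7 CPM. The ratio of *Ndufaf2* to *Ndufa12* in KO-443-5 was 0.184, where the next NAE1CKO library was at 0.164. In the 4 single genes no such value closed the gap between NAE1CKO and CTL.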

How the results depend on the processing

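The number of complex I genes lower in NAE1CKO, 35 with all libraries, was 33 to 38 when 1 library was left out, 28 with KO-443 and WT-443 alone, 34 with KO-453 and WT-453 alone, 30 under scaling by library size, 38 under upper quartile scaling, 36 in DESeq2, 35 in limma-voom and without *Gm42418*, 32 at an adjusted p under 0.01 and 1 when a fold above 1.5 was required. No alternative gave a higher call. The median log2 fold change, −0.36, was −0.40 to −0.31 when 1 library was left out, −0.26 with KO-443 and WT-443 alone and −0.28 under library size, which moved the median of all genes to 0.08. The same 27 genes were lower in all 22 alternative fits, 8 others lost the call in at least 1, 5 gained it in at least 1 and 6 passed in none. *Ndufaf3*, *Ndufaf8* and *Ndufa4* lost it only with KO-443 and WT-443 alone, *Ndufb5* and *Ndufb8* there and under library size, and *Ndufb7* in these and without WT-453-3. *Ndufaf4* turned to 0.00083 with KO-443 and WT-443 alone, to 0.045 under library size, to 0.0135 without WT-453-5 and to 0.0097 without KO-453-7, within −0.13 to 0.0135 when 1 library was left out. The log2 difference of the ratio of *Ndufa4l2* to *Ndufa4* was 0.078 to 0.25 when 1 library was left out, and 0.25 (p = 0.0286, exact permutation test) without KO-443-5. That of *Ndufaf2* to *Ndufa12* was 0.067 to 0.13. In the 150 bases nearest the start, HIF letters were in 4 of 40 windows, against 13.1% of genes, and TATA letters in 2, against 8.08%. NRF1 letters were in 9 there, against 5.25%, YY1 letters in 6, against 1.24%, and ETS letters in 5, against 7.52%. The causes were not tested. With the title number as a replicate block 38 genes were lower. Deviations of libraries with the same number in the 2 groups correlated at −0.066 to 0.30, against −0.22 to 0.13 for different numbers. These ranges overlap, and the numbers were not taken as pairs. Within CTL the correlations were −0.024 and 0.095 for the same number, against −0.56 to −0.46 for different numbers. Within NAE1CKO they were −0.39 and −0.019 for the same number, against −0.54 to −0.29. The scarce assembly factors had larger errors in the median than the subunits.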
